A study of Mus musculus with 3 samples.

Results

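Nonclassical monocyte-like cells carrying Ace, Ear2 and Adgre4 made up 207 of the 43730 cells recovered from mouse melanomas. Members were selected on raw counts per cell: a cell was taken when its summed count of Ear2, Ace and Adgre4 was at least 3, its summed C1qa, C1qb and C1qc count was under 10, and its Cd3d, Cd3e and Cd3g sum, its Ncr1 and Klrb1c sum and its Cd209a count were each at most 1. There were 139 members in the 4-month library, 29 in the 12-month library and 39 in the 20-month library. The limits keep out macrophages rich in complement C1q, T cells, NK cells and a class of dendritic cell, so the levels of all these genes in the members follow from the choice and are given as a description.

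The series holds single-cell RNA profiles of tumour leukocytes from mice aged 4, 12 and 20 months, with 1 library per age. Per the labels, every mouse received 500000 cells of YUMM1.7, a mouse melanoma line, under the skin, and 7 mice of each age were killed 18 days later. Live cells bearing CD45, the common leukocyte surface protein, were sorted and made into 3′ libraries with a PIP-seq kit, which captures cells in droplets formed without a microfluidic chip. The labels give neither the strain and sex of the mice nor whether the 7 tumours of an age were pooled, and there was no group without a tumour. With 1 library per age no difference between ages has a replicate check, so no test was made. Intervals below are 95% intervals for counting error only: exact Poisson for a level, exact Clopper-Pearson for a share, and exact conditional binomial for a ratio of levels.

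Monocytes of the mouse fall into a classical class, which carries Ly6C and Ccr2 and enters inflamed tissue, and a nonclassical class with little Ly6C, which crawls along the inner wall of blood vessels. Classical monocytes can turn into nonclassical ones, a step that depends on the transcription factor Nr4a1. In tumours, classical monocytes are a source of macrophages, while nonclassical monocytes are known mainly from the vessels, which they patrol and clear of debris.

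Each library held 14393 to 14684 cells, with a median of 6789 to 7411 counts per cell. Members had a median of 5521 counts at 4 months, 6972 at 12 months and 6477 at 20 months. The summed member counts were 833916, 199646 and 262458, so a level of 50 CPM (a gene's counts relative to all counts of the population) stood for 42 counts at 4 months but only 10 at 12 months and 13 at 20 months. No member barcode occurred in another library, 9 barcodes of any cell were shared between pairs of libraries, and 3 members, all at 4 months, had a doublet score in the top 6% of their library. The 3 comparison populations were cut by like rules: 884 classical monocytes (F13a1, Vcan and Hp sum of at least 3, C1q sum under 10), 1521 macrophages (C1q sum of at least 10) and T cells (Cd3 sum of at least 10, C1q sum under 10). Classical monocytes and macrophages also had a rule sum under 3 and met the limits on Cd3, NK and Cd209a counts.

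The 3 rule genes encode angiotensin-converting enzyme (Ace), a secreted ribonuclease (Ear2) and an adhesion receptor of the EGF-TM7 family (Adgre4). Ace stood at 347 CPM (308 to 389) at 4 months, 351 (273 to 443) at 12 months and 251 (194 to 320) at 20 months. Adgre4 stood at 290, 381 and 244 CPM, and Ear2 at 309, 286 and 438 CPM. In the 20-month library the 5 highest cells held 71.3% of the Ear2 counts, and 1 cell held 36 of 115. All 3 genes had a count in 80 of the 207 members (38.6%), 88 had counts of 2 genes and 39 of 1 gene. At the threshold, 69 members sat at the minimum sum of 3 (46, 7 and 16 by age), and 142 cells met every other limit with a sum of 2 (86, 26 and 30). On GRCm38, Ace lies on chromosome 11 at 105967945 to 105989964 (plus strand), Ear2 on chromosome 14 at 44102654 to 44103534 (plus strand) and Adgre4 on chromosome 17 at 55749984 to 55853662 (plus strand).

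The gene outside the rule that led the members over all other cells in each library was Ear1, a paralog of Ear2 on the minus strand of chromosome 14 (43818765 to 43875517). Ear1 stood at 252 CPM (219 to 288) at 4 months, 210 (152 to 284) at 12 months and 210 (158 to 273) at 20 months, against 24.3, 21.3 and 17.2 in classical monocytes and at most 2.29 in macrophages. The members were above the classical monocytes in every library, 9.88-fold to 12.2-fold. Because Ear1 and Ear2 are near copies, Ear1 is not an independent marker: the longest transcript of each identical to the other at 96.4% of 713 aligned positions. A stretch of 60 bases of Ear2 also occurred in Ear1 for 103 of 660 windows (15.6%), and a stretch of 100 bases for 0 of 620. The labels give reads of 60 and 100 bases and the handling of reads that match both genes is not given in the sources used here, so the split of counts between Ear1 and Ear2 is uncertain.
The 250 bases before each start, from the RefSeq promoter table (GRCm38.p6), are shown because the copies also extend to the regulatory side, with capitals marking the bases that differ or have no partner in the alignment. Ear2 is at chr14:44102404-44102653 (plus strand) and Ear1 at chr14:43819640-43819889 (minus strand). The RefSeq start of Ear1 is that of its shorter GENCODE transcript, so this window lies inside the span given above, whose outer end belongs to a longer transcript.
Ear2: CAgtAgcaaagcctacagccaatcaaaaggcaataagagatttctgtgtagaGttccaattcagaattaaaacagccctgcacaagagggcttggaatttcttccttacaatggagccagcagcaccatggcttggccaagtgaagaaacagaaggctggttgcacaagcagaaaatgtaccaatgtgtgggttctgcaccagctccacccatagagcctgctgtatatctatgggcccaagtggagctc
Ear1: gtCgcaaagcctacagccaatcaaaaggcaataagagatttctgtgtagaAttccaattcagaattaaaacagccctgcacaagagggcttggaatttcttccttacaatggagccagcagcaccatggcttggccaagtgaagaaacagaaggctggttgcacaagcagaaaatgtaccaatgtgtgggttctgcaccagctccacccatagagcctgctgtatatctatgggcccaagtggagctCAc
The alignment had 246 identical positions of 252 (97.6%), 2 substitutions and 4 gap positions. Of Ear1, the 3 rule genes and the 20 listed nonclassical genes, 21 of 24 had promoter windows of 300 bases in the same table. A search for 2 motifs was chosen after the levels had been seen. None of the 21 held the NR4A site AAAGGTCA or its complement TGACCTTT, which 1.51% of all 32851 promoters hold. With a site this rare, its absence from 21 genes is uninformative. The PU.1 site GAGGAAGT or its complement ACTTCCTC, which does not overlap the NR4A site, occurred in 2 genes, Adgre4 and Fcgr4, against 3.2% of all promoters. In Adgre4 the match began at base 292 of 300, after the start of the gene.

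Genes that the rule did not use were then read in the members, with a measure chosen after the levels had been seen. The list of 20 nonclassical monocyte genes takes in Cd36, Eno3 and Cd9, which are markers of the label itself. It is therefore no independent check of the label. Members thinned to 3500 counts each had counts of a median of 8 of the 20 genes at 4 months, 7 at 12 months and 7 at 20 months. Classical monocytes had a median of 4 at each age, macrophages 4, 5 and 5, and T cells 2 at each age. Members with 0 of the 20 genes numbered 0 at every age. The plot of listed genes per cell shows that the 10th percentile of the members, 4 genes, lay at the median of the classical monocytes.

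**Figure D1:**
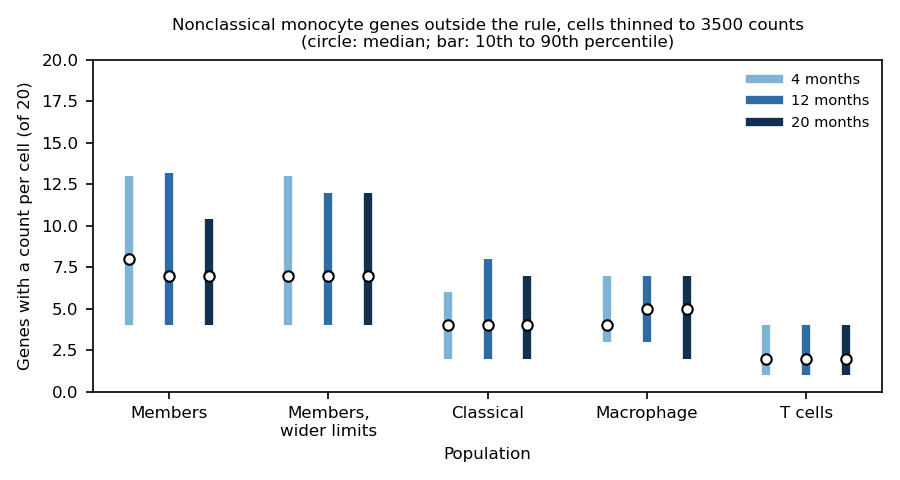
Number of 20 nonclassical monocyte genes outside the rule with a count in each cell, after thinning to 3500 counts, for 5 populations (x axis) and 3 ages (shades). The 20 include the label markers Cd36, Eno3 and Cd9. Circles mark medians and bars the 10th to 90th percentile; the members' medians of 7 and 8 lie above the classical medians of 4, with overlapping bars.

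Cd36, a scavenger receptor that takes up oxidised lipids, Eno3, a muscle-type enolase of glycolysis, and Cd9, a tetraspanin, complete the label's markers. Cd36 stood at 130 CPM (106 to 156) at 4 months, 80.1 (45.8 to 130) at 12 months and 53.3 (29.2 to 89.5) at 20 months, against 9.18, 2.13 and 3.44 in classical monocytes. Eno3 stood at 127, 80.1 and 87.6 CPM against 8.37, 4.26 and 3.44. Both were at least 14.1-fold above classical monocytes in each library, and for Eno3 the T cells, at 27.1, 24.2 and 11.8 CPM, lay above the classical monocytes too. After thinning, Cd36 had a count in 23.0% of members at 4 months, 17.2% at 12 months and 15.4% at 20 months, against 0.38% to 0.54% of T cells. Without thinning, 25.2%, 20.7% and 17.9% of members had a Cd36 count, so the gene was found in a minority of them.
Cd9 separated the populations less. It stood at 139 CPM (115 to 167), 100 (61.2 to 155) and 103 (67.8 to 150) in members, against 70.5, 37.3 and 27.5 in classical monocytes, 76.4, 70.7 and 49.3 in macrophages and 38.7, 38.6 and 29.8 in T cells. The interval of the members at 12 months overlapped that of the macrophages, and 12 of 29 members had a count there.

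The list of 20 was next compared with classical monocytes as summed counts per population. Among 3198 genes at 50 CPM or more in either population in each library, 20 (0.625%) were at least 2-fold higher in the members in all 3 libraries and 9 (0.281%) at least 2-fold lower, together 0.907%, on the scale of log2(CPM + 10). These counts take in genes used to choose the cells: Ace, Ear2 and Adgre4 among the higher, and F13a1 and Vcan among the lower. Of the 20 listed genes, 16 were measured, 6 were at least 2-fold higher in all 3 libraries (Cd36, Eno3, Nr4a1, Treml4, Gngt2 and Pglyrp1) and none lower. The median log2 ratio of the 16 was 1.12, beside -0.01 over all genes tested, and all 16 lay above 0. The members were chosen with counts of these same cells, so these numbers describe the population and test nothing.

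Treml4, a receptor of the TREM family, stood at 291, 230 and 179 CPM by age, against 26.5, 51.1 and 27.5 in classical monocytes and 34.1 to 40.8 in macrophages. Gngt2, a G protein gamma subunit, stood at 1233 CPM (1159 to 1310), 1062 (924 to 1215) and 846 (738 to 965), against 274, 373 and 347. Nr4a1, the factor of the classical to nonclassical step, stood at 651, 766 and 556 CPM, against 262, 348 and 245 in classical monocytes and 103 to 145 in macrophages. T cells carried 130 to 225 CPM of Nr4a1, so its presence alone does not mark a monocyte. The members were highest of the 4 populations for all 3 genes at every age.
Pglyrp1, a peptidoglycan-binding protein, stood at 258, 270 and 278 CPM in members and 83.7, 91.5 and 71.5 in classical monocytes, but at 168 to 241 in T cells. Cx3cr1, the fractalkine receptor used for crawling and survival, differed less: 261, 165 and 225 CPM in members against 144, 131 and 160 in classical monocytes and 149 to 191 in macrophages. The members' Cx3cr1 interval overlapped that of the classical monocytes at 12 months (114 to 232 and 109 to 156) and at 20 months (171 to 290 and 140 to 182). Spn, the CD43 sialomucin often used to sort nonclassical cells, stood at 152, 160 and 91.4 CPM against 36.7, 64.9 and 47.4 in classical monocytes, with 123 to 129 in T cells. Fcgr4, another common marker, was at 272, 245 and 328 CPM in members, above classical monocytes (165, 116 and 205) and below macrophages (533, 448 and 626).

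**Figure D2:**
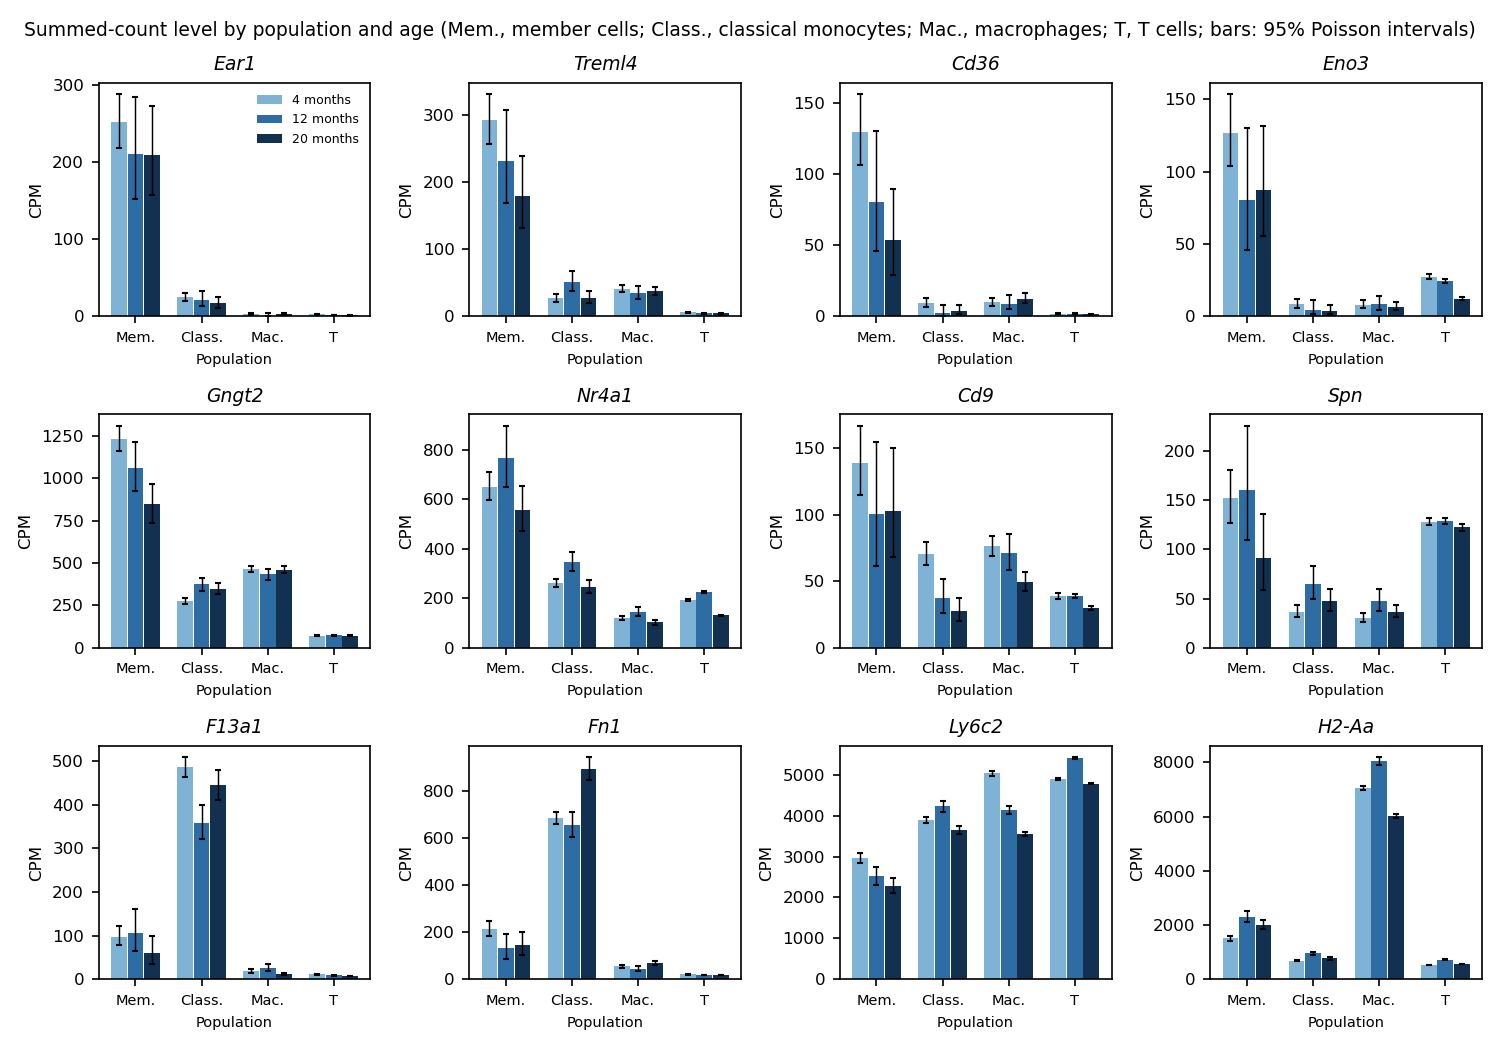
CPM (y axes, linear from 0) of 12 genes in members, classical monocytes, macrophages and T cells at 4, 12 and 20 months, with 95% Poisson intervals. Ear1, Treml4, Cd36, Eno3, Gngt2 and Nr4a1 were highest in members, F13a1 and Fn1 in classical monocytes, and H2-Aa in macrophages.

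Of the genes that stood furthest above classical monocytes in their least different library, Ear1, Eno3, Cd36 and Treml4 led, followed by Abcg3, Pglyrp1, Pot1b, Cd300ld, Gngt2, Rbpms, Klhl5 and Cd74. Abcg3, an ABC transporter, stood at 69.6, 80.1 and 72.4 CPM against 11.9, 17.0 and 17.9. Cd300ld, a receptor of the CD300 family, stood at 151, 130 and 141 CPM against 32.4, 47.9 and 52.9. Pot1b, a telomere-binding protein, stood at 97.1, 150 and 99.1 CPM against 21.3, 43.6 and 31.6. For Abcg3, Cd300ld and Pot1b the intervals of members and classical monocytes did not overlap in any library.
Fn1, encoding fibronectin, came first among the lower genes by the library nearest 0, with the rule genes left out: 213, 130 and 145 CPM against 684, 657 and 893. Ccl2, the ligand of Ccr2, stood at 371, 416 and 370 CPM against 1545, 1185 and 772, and Ccr1, a chemokine receptor, at 118, 55.1 and 141 against 405, 270 and 312. C3ar1, Clec4d, S100a10 and Ccnd1 were likewise at least 2-fold lower in each library. Emp1, Adam8, Vim, Capg and Mgst1 closed the list of 12 and were lower in each library without reaching 2-fold in all 3 on the scale used for the call. Vim, an intermediate filament, stood at 753, 821 and 686 CPM against 1984, 1643 and 1741.

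Classical monocyte genes were still present in the members. Of 12 listed genes 10 were measured, 9 lay below 0, 3 were at least 2-fold lower in all libraries (F13a1, Vcan and Fn1) and the median log2 ratio was -0.69. F13a1 and Vcan helped to choose the classical monocytes, which leaves Fn1 as the call outside that choice. Ly6c2, the gene of Ly6C, stood at 2970, 2519 and 2290 CPM in members against 3901, 4235 and 3654 in classical monocytes. T cells carried 4792 to 5421 CPM and Ly6c2 had a count in every member, so a low-Ly6C state could not be read from single cells here. Ccr2 stood at 613, 887 and 800 CPM against 761, 1002 and 909, while Plac8 was higher in members, at 8502, 7739 and 8474 CPM against 7196, 6488 and 6813. Lyz2, lysozyme, stood at 15334, 13579 and 13873 CPM against 27346, 22950 and 24668.

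Lists of genes for other leukocyte functions stood differently against the 2 other myeloid populations. Class II antigen presentation genes were above classical monocytes (6 measured, 2 called higher, H2-Aa and Cd74, all above 0) and below macrophages (7 measured, 5 called lower, median -1.59). In that comparison with macrophages, 165 of 3317 genes (4.97%) were higher and 62 (1.87%) lower in all 3 libraries, together 6.84%. The adhesion list lay mostly above both: against classical monocytes 10 of 12 measured genes were above 0, the median was 0.49 and Itgax, encoding CD11c, was called higher. Against macrophages 12 of 12 were above 0 and the median was 0.69. The lipid list had medians of 0.59 and 0.63, with 1 of 9 genes called higher against classical monocytes (Cd36) and 3 of 9 against macrophages (Cd36, Apoc2 and Olr1). Of the measured genes, the adhesion list shares Cx3cr1, Itgal, Spn and Cd9 with the nonclassical list, and the lipid list shares Cd36, so these lists are not separate readings. Itgal, a subunit of the integrin LFA-1, stood at 360, 371 and 331 CPM against 149, 181 and 163. Against classical monocytes, 8 of 11 interferon-response genes lay below 0, with a median of -0.31 and 0 called. The Fc receptor list had a median of 0.04 there and 0 called of 5 measured.

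Markers of eosinophils, alveolar macrophages and platelets, cells that share Ear, Ace or Cd36 expression, were near 0. The 7 eosinophil markers summed to 3 counts in the 4-month members and 0 at both other ages, with Epx, Prg2, Il5ra, Ear6 and Alox15 at 0 in all members. The 5 alveolar macrophage markers summed to 1, 0 and 0 counts, with Marco, Krt79, Fabp1 and Car4 at 0. The 5 platelet markers, of which Itga2b was the sole gene with a count, summed to 2, 1 and 0 counts. The 6 endothelial markers summed to 19.2, 15.03 and 11.4 CPM in members, against 21.9, 30.9 and 26.8 in classical monocytes and 15.8 to 16.2 in T cells. The 7 neutrophil markers summed to 188, 95.2 and 95.3 CPM, with Cxcr2 and Mmp9 at 0, against 155, 217 and 137 in classical monocytes. The 6 T cell markers summed to 243, 336 and 370 CPM in members, against 5134 to 5714 in T cells, and the 5 NK cell markers to 320, 180 and 126 CPM. The classical monocytes carried similar sums, 241, 358 and 297 CPM for T cell markers and 257, 202 and 135 for NK cell markers. The part of RNA from these other cells in the levels above was not tested.

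Members were not uniform, and several nonclassical genes, chosen after their values had been seen, were higher at higher rule sums. With the libraries combined, Gngt2 stood at 629 CPM in the cells just outside (sum 2), 774 at a sum of 3, 1098 at 4 to 5, 1443 at 6 to 8 and 1452 at 9 or more. Eno3 stood at 42.6, 48.7, 76.2, 112 and 255 CPM over the same steps, and Spn at 59.3, 85.8, 84.7, 129 and 309. Gngt2, Eno3, Spn and Treml4 were higher at 9 or more than at a sum of 3 within each library, on 7 to 10 counts at 20 months for Eno3 and Spn.
Nr4a1 stood at 341, 408, 500, 917 and 992 CPM, although at 12 and 20 months it was higher at sums of 6 to 8 (1130 and 1080) than at 9 or more (897 and 607). Other listed genes did not follow the sum. Cd9 stood at 76.9, 62.6, 184, 172 and 111 CPM, with 0 counts in the 7 members at 20 months with a sum of 9 or more, and Cx3cr1 at 157, 234, 215, 228 and 287. Ear1 stood at 72.8, 83.4, 189, 276 and 503 CPM, but as a near copy of Ear2, which is part of the sum, it is no separate reading.
Cd36 stood at 36.4, 69.5, 84.7, 60.3 and 230 CPM. Its high last step came from the 4-month and 12-month libraries (315 and 144 CPM), against 39.1 in the 7 such members at 20 months. Ly6c2 went the other way, from 3639 CPM outside to 3352, 3053, 3028 and then 1261, and was lower at the last step than at a sum of 3 in each library, as did Ccl2, from 659 to 540, 361, 366 and 155. F13a1 went from 191 to 111, 113, 90.5 and 32.3 CPM, but within the rule it was lower at 9 or more than at 3 in the 4-month library alone (151 to 17.5): it was 20.6 and 53.8 at 12 months and 53.7 and 58.7 at 20 months. Depth did not follow the sum, with median counts of 6366, 5910, 5774, 6139 and 6162 per cell. These steps pool 3 libraries that contributed unequally, with 28, 8 and 7 of the 43 highest members from 4, 12 and 20 months.

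**Figure D3:**
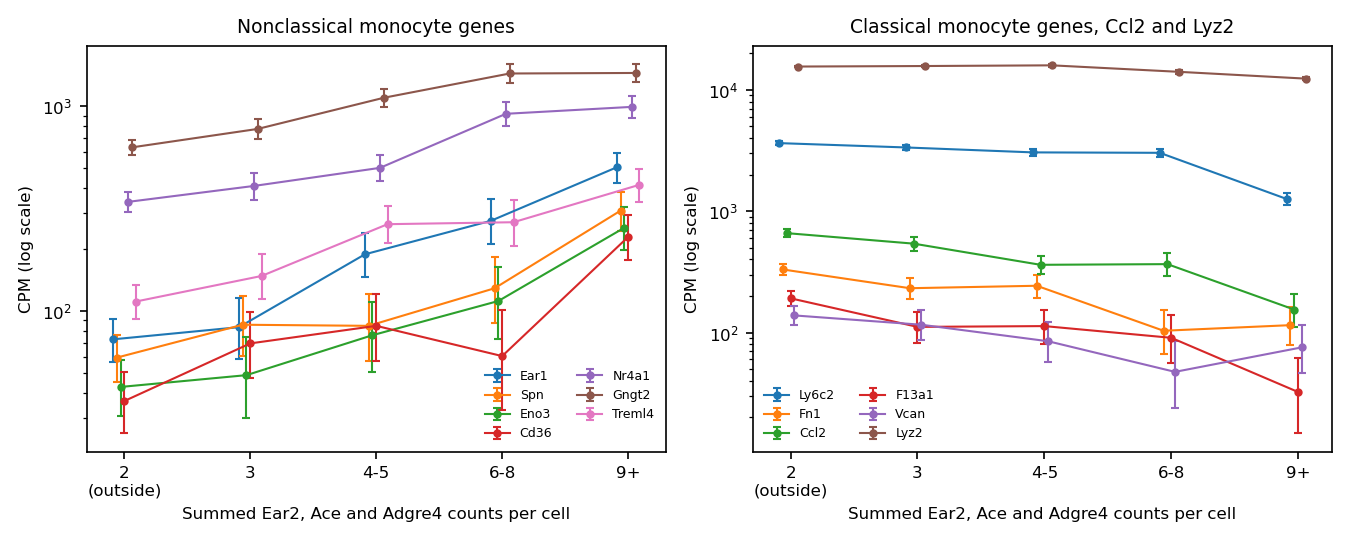
CPM on a log axis (y) by the summed Ear2, Ace and Adgre4 count per cell (x), all libraries combined, with 95% Poisson intervals; the first step lies outside the rule. Gngt2 (629 to 1452 CPM) and Eno3 (42.6 to 255 CPM) were highest and Ly6c2 (3639 to 1261 CPM) lowest at a sum of 9 or more.

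A neighbour graph was built on 1000 genes without the 15 genes of the rules. Ear1, the near copy of Ear2, was not among those left out, and its part in the order by rule sum was not tested. Among the 15 nearest neighbours of a member, 43.9% were members, 39.6% classical monocytes and 16.5% macrophages, in a pool of 2612 cells with 7.92% members. The member share among neighbours was 26.9% for members with a sum of 3, 32.8% at 4 to 5, 55.5% at 6 to 8 and 76.3% at 9 or more. In all, 78 of 207 members had at least 8 member neighbours and 21 had none. The 78 comprised 61 of 139 members at 4 months, 8 of 29 at 12 months and 9 of 39 at 20 months. Members were also a different share of the pooled cells of each library, at 10.1%, 7.65% and 4.52%. The part of these shares in the counts by age was not tested.
Among the members, 91 also reached the F13a1, Vcan and Hp sum of 3 that defined classical monocytes. Their Cd36 level was 56.5 CPM against 150 in the other 116, Spn 94.7 against 182, Treml4 183 against 326 and Ace 254 against 392. Within each library Cd36, Spn, Treml4 and Ace were also lower in these members, with Treml4 nearly level at 20 months (173 against 184). The other rule genes were not ordered alike: Ear2 was 370 CPM against 298 in the combined cells and 749 against 147 at 20 months, and Adgre4 was 271 against 316 combined but 458 against 274 at 12 months. Ceacam1 was 123 against 114. Cxcl10, an interferon-induced chemokine, was not ordered alike: 2673 against 949 CPM at 4 months, 1063 against 1799 at 12 months and 1941 against 1643 at 20 months. H2-Aa, a class II gene, was lower in these members at 4 months (896 against 1956) and 20 months (1278 against 2675) and level at 12 months (2282 against 2334). Gngt2, at 1096 against 1156 CPM, and Itgal, at 355 against 356, differed little in the combined cells.

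The question set by the ages was first put to the size of the population. Members were 0.966% (0.812 to 1.14) of all cells at 4 months, 0.198% (0.133 to 0.284) at 12 months and 0.266% (0.189 to 0.363) at 20 months. The log2 ratio of the shares was -2.29 (-2.86 to -1.71) at 12 against 4 months and -1.86 (-2.37 to -1.35) at 20 against 4 months. The intervals at 12 and 20 months overlapped each other and lay apart from the one at 4 months.
The Cd3 limit of the rule acted unequally across libraries. Of cells with a rule sum of at least 3 and a C1q sum under 10, it removed 178 of 336 at 4 months (53.0%), 175 of 207 at 12 months (84.5%) and 145 of 188 at 20 months (77.1%). Macrophages with at least 60 C1q counts, which should lack Cd3, carried a median of 2, 5 and 4 Cd3 counts, and only 29.8%, 7.57% and 14.5% of them met the limit. Cells with at least 10 Cd3 counts, at any C1q count, reached a rule sum of 3 in 0.142%, 0.347% and 0.285% of cells.
With wider limits of 9 Cd3 and 3 NK gene counts, chosen after the data had been seen, there were 317, 187 and 179 members, or 2.20% (1.97 to 2.46), 1.28% (1.10 to 1.47) and 1.22% (1.05 to 1.41) of cells. The log2 ratios were then -0.79 (-1.05 to -0.53) and -0.85 (-1.12 to -0.59). Among cells that met the limits of the rule on other genes, members were 8.52% (7.21 to 9.98), 7.07% (4.79 to 10.0) and 5.95% (4.27 to 8.05), with overlapping intervals. The log2 ratios there were -0.27 (-0.82 to 0.29) at 12 months and -0.52 (-1.01 to -0.02) at 20 months. Among members, classical monocytes and macrophages cut by the wider limits, members were 8.18% (7.34 to 9.09), 6.10% (5.28 to 7.00) and 4.30% (3.70 to 4.96). The share was highest at 4 months on each of these denominators, and for the share of all cells the ratios were nearer 0 with the wider limits. Among members, classical monocytes and macrophages the ratio at 12 against 4 months was -0.41 (-0.96 to 0.15) by the rule and -0.43 (-0.68 to -0.17) by the wider limits. At 20 against 4 months it was -1.17 (-1.66 to -0.67) and -0.93 (-1.19 to -0.67). The part of free Cd3 RNA in the difference between ages was not tested. In a sorted suspension a share also depends on how many other cells were captured, and this cannot be told apart from a smaller number of these cells.

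**Figure D4:**
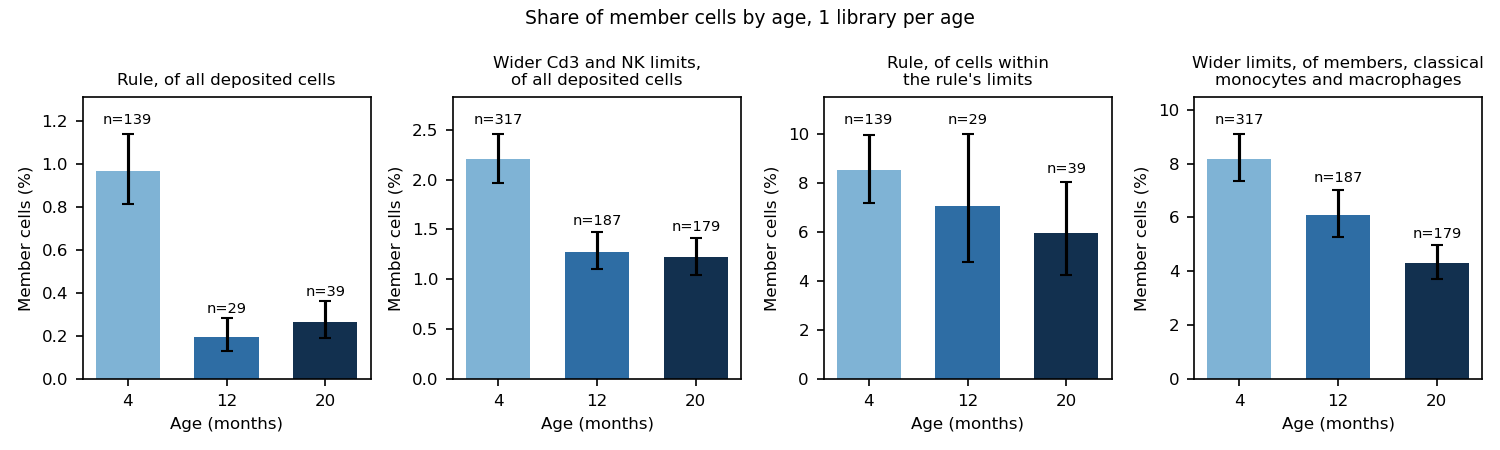
Member cells as a percentage (y axes, from 0) at 4, 12 and 20 months under 2 sets of limits and 3 denominators, with 95% Clopper-Pearson intervals and the number of members above each bar. The 4-month bar is highest in each panel (0.966% of all cells by the rule, 2.20% by the wider limits), and the intervals overlap when only cells within the limits are counted.

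The levels of genes in members were then set against those at 4 months. At 12 months 189 of 3923 genes (4.82%) were past 2-fold, 107 higher (2.73%) and 82 lower (2.09%), and at 20 months 130 of 3699 (3.51%), 66 higher (1.78%) and 64 lower (1.73%). With the wider limits and their deeper sums these counts were 30 of 3569 (0.841%; 0.364% higher and 0.476% lower) and 32 of 3556 (0.9%; 0.422% higher and 0.478% lower). Both comparisons share the 4-month members. The counts by the rule rest on 29 and 39 cells, so the log2 ratios below are given with those by the wider limits beside them. The wider set contains every member by the rule, so the 2 readings are not independent.

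Among the label's markers Cd36 differed most. Its log2 ratio at 20 against 4 months was -1.28 (-2.20 to -0.47) by the rule and -1.44 (-1.88 to -1.01) by the wider limits, where its level was 112, 49.6 and 41.2 CPM by age. Counts of Cd36 were found in 75 of 317 members by the wider limits at 4 months (23.7%, 19.1 to 28.7), 28 of 187 at 12 months (14.97%, 10.2 to 20.9) and 23 of 179 at 20 months (12.8%, 8.32 to 18.7). The 4-month library was highest by level and by share of cells. Few cells set these levels: by the wider limits the 5 highest held 22.4%, 39.7% and 57.1% of the Cd36 counts by age. At 20 months 1 cell held 14 of the 56 counts. By the rule the 5 highest held 35.2%, 93.75% and 85.7%, on 108, 16 and 14 counts. Classical monocytes, at under 10 CPM, had a log2 ratio of -1.42 (-3.13 to -0.06).
Eno3 was -0.54 (-1.25 to 0.12) by the rule and -0.56 (-0.91 to -0.22) by the wider limits, and Cd9 -0.44 (-1.10 to 0.18) and -0.48 (-0.80 to -0.17). Ear1 was -0.26 (-0.72 to 0.17) and 0.03 (-0.19 to 0.24), and Nr4a1 -0.23 (-0.50 to 0.04) and -0.28 (-0.42 to -0.14). Treml4 was -0.70 (-1.19 to -0.25) and -0.36 (-0.57 to -0.14). Of the 20 listed nonclassical genes 18 were measured at 20 against 4 months, 0 were past 2-fold higher and 2 lower (Cd36 and Ceacam1). Their median log2 ratio was -0.31 by the rule and -0.10 by the wider limits, beside -0.01 and -0.0038 over all genes, and Cd36 alone of the list was called by the wider limits.

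Lipid-handling genes other than Cd36 were mixed. Olr1, the LOX-1 receptor for oxidised lipoprotein, stood at 50.4, 70.1 and 149 CPM by age in members, and at 38.6, 48.3 and 107 by the wider limits. Its log2 ratio at 20 months was 1.56 (0.89 to 2.22) and 1.48 (1.08 to 1.88), and in classical monocytes 1.09 (0.52 to 1.65). Members by the wider limits had an Olr1 count in 14.5%, 18.2% and 23.5% of cells, although 5 cells held 38.4% of the counts at 20 months. Fabp5 and Pparg were called lower at 20 months by the rule, at 11 and 5 counts, and neither was by the wider limits. In all, 1 of 11 measured genes of the lipid list was called higher and 3 lower, and by the wider limits 1 of 10 each way, Olr1 and Cd36.

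Class II genes were higher at both later ages in all 6 measured cases, with median log2 ratios of 0.58 at 12 months and 0.57 at 20 months by the rule, and 0.35 and 0.26 by the wider limits. None was past 2-fold. When each gene's 5 highest cells were left out, with the total counts of all members kept, the medians by the rule were -0.26 at 12 months and -0.05 at 20 months. This step removes a larger part of 29 or 39 members than of 139, and nearly all genes past 2-fold under it were lower. These medians therefore cannot be read as a loss of the difference in class II genes. H2-Ab1 stood at 1258, 2139 and 2141 CPM in members, against 694, 968 and 867 in classical monocytes and 524, 742 and 643 in T cells, which do not make it in the mouse. By the wider limits it stood at 1639, 2370 and 2285 CPM, and its log2 ratio at 20 months was 0.77 (0.62 to 0.92) by the rule and 0.48 (0.41 to 0.55) by the wider limits. The 5 highest members held 24.6%, 62.1% and 43.2% of the H2-Ab1 counts. Classical monocytes and T cells were also lowest at 4 months for this gene, and the part of free macrophage RNA in the members' level was not tested.
Trem2, a lipid-sensing receptor of macrophages which the study set out to follow, stood at 36.0, 60.1 and 91.4 CPM, on 30, 12 and 24 counts. By the wider limits it stood at 34.8, 46.9 and 56.6 CPM, with a log2 ratio of 0.70 (0.22 to 1.18). Macrophages carried 57.1, 77.1 and 127 CPM and T cells 3.86, 6.74 and 9.79, each lowest at 4 months as well. Trem2 and Cd81 were the 2 of 6 measured macrophage genes called higher at 20 months by the rule. Cd81 rested on 8, 6 and 14 counts by age. By the wider limits 0 of 5 were called, with Cd81 not measured. Trem1, an activating receptor of myeloid cells, stood at 73.1, 145 and 91.4 CPM, and its log2 ratio at 20 months was 0.32 (-0.42 to 1.02) by the rule and 0.33 (-0.03 to 0.69) by the wider limits. Trem3 was 130, 115 and 118 CPM by the rule and 144, 108 and 103 by the wider limits.

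Inflammatory genes showed how few cells can set a level. Cxcl2, a neutrophil chemokine, stood at 87.5, 40.1 and 377 CPM, but 1 cell held 93 of the 99 counts at 20 months. By the wider limits its log2 ratio was 0.42 (0.13 to 0.72) in place of 2.11 (1.66 to 2.56). Il1b, a pyrogenic cytokine, stood at 1371, 1663 and 2397 CPM, with 154 of 629 counts at 20 months in 1 cell, and its ratio went from 0.81 (0.66 to 0.95) to 0.14 (0.06 to 0.22). Ccr2 differed by the same amount under both limits, 0.38 (0.15 to 0.62) and 0.41 (0.30 to 0.53). Interferon-response genes had a median of -0.09 by the rule, with 7 of 11 below 0, and of -0.38 by the wider limits, with 11 of 11 below 0. Isg15, a ubiquitin-like modifier, was -0.12 (-0.28 to 0.05) and -0.46 (-0.54 to -0.38).

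A rule for single genes asked for a 2-fold difference, a 12-month level in between, a level above that in T cells, a smaller or opposite ratio in T cells and under 25% of counts in the 5 highest cells. Of 84 genes that met the first 2 conditions, 12 met all, and these were all lower at 20 months. The last condition is hard to meet for a higher level at 20 months, where members numbered 39. The 8 largest were Prkce, Ubn2, Copb1, Pnpla2, Usp15, Ceacam1, Cyfip2 and Fam32a. Prkce, protein kinase C epsilon, stood at 93.5, 80.1 and 26.7 CPM, with a log2 ratio of -1.81 (-3.17 to -0.70) by the rule and -0.32 (-0.70 to 0.04) by the wider limits. Ceacam1, an adhesion receptor used by monocytes, stood at 136, 135 and 49.5 CPM, with -1.45 (-2.41 to -0.62) and -0.16 (-0.46 to 0.15). Pnpla2, the fat triglyceride lipase, was -1.63 (-3.13 to -0.42) and -0.56 (-1.07 to -0.07). By the wider limits the 8 genes ranged from -0.56 to 0.32, with none past 2-fold and Ubn2 in the opposite direction.

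**Figure D5:**
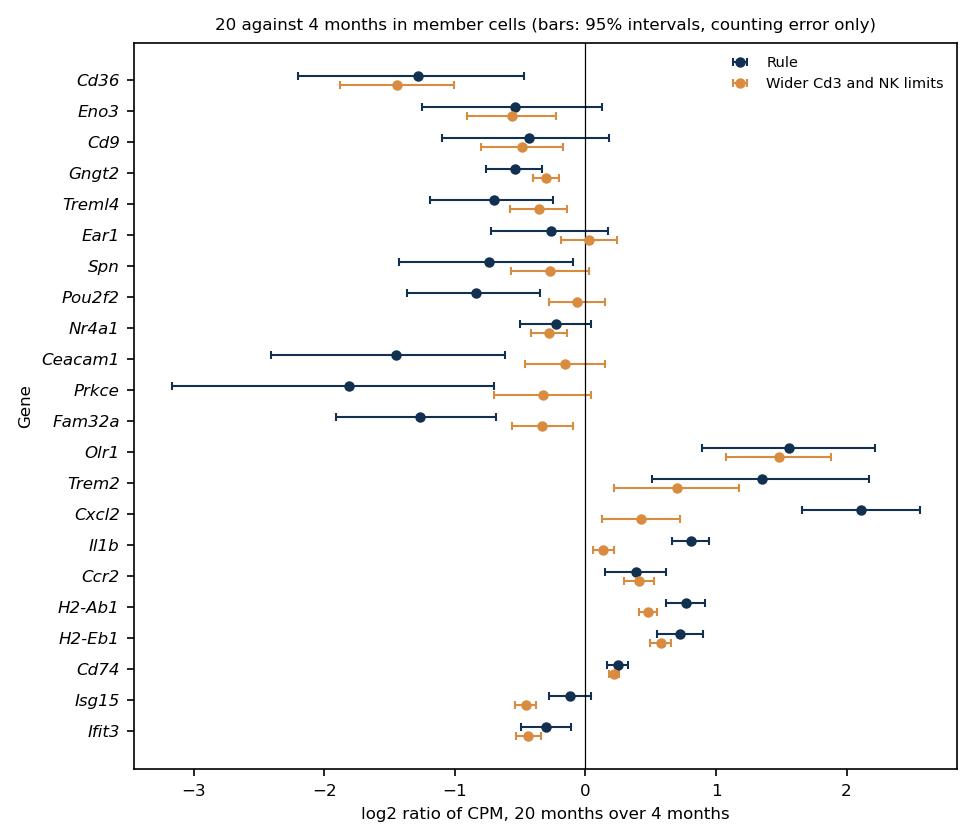
log2 ratio of CPM at 20 over 4 months (x axis) for 22 genes in members by the rule (dark) and by the wider limits (orange), with 95% intervals for counting error. Cd36 (-1.28 and -1.44) and Olr1 (1.56 and 1.48) had like values under both limits, while Ceacam1, Prkce, Cxcl2 and Il1b lay nearer 0 under the wider limits. The wider set contains every member by the rule, so the 2 values of a gene share cells.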

How the data were processed

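Deposited values were raw counts (55401 listed genes by cells, 1 matrix per library) and were used without change. The submitters' processing notes name STAR 2.7.10a and GRCm38. The counting program, annotation and cell calling are not given in the sources used here. Gene identifiers matched GENCODE M21 for 98.1%. Members and gene lists were chosen with earlier results of these data known. No cell was removed; Scrublet scores (scanpy 1.11.5) marked the top 6% of each library, and leaving these out, with cells over 15% mitochondrial counts, was an alternative. Counts were summed per population and library and given as CPM. Ratios for calls were log2((CPM + 10)/(CPM + 10)) at 50 CPM or more in either group; printed ratios with an interval carry no pseudocount. Genes named were the label markers and Ear1, list members, the 12 highest and 12 lowest against classical monocytes by the library nearest 0 (rule genes left out), and up to 8 each way between 4 and 20 months. That last step took T cells as cells with a Cd3 sum of at least 3 and C1q sum under 10, which can admit myeloid cells that carry Cd3 counts. Printed T cell levels use a Cd3 sum of at least 10 with the same C1q limit. Shares of cells with a count were also taken after thinning each cell to 3500 counts. With 1 library per age no test across samples was run. The ratio functions were tested on simulated data. Python 3.11.15, NumPy 2.4.6, SciPy 1.17.1, pandas 2.3.3, Biopython 1.88 and matplotlib 3.10.9 were used.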

Additional observations from a re-analysis of the deposited data

Results flagged for a closer look

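Of 231 genes screened, 5 differed between 20 and 4 months in opposite directions in members and classical monocytes, each with a counting interval off 0 in both populations. With 1 library per age the difference was not tested for any of them. Pou2f2, a B cell and monocyte transcription factor, had a log2 ratio of -0.84 in members and 0.40 in classical monocytes, and -0.06 in members by the wider limits. Gngt2 had -0.54 in members and 0.34 in classical monocytes, and -0.30 by the wider limits, where the direction held. Fn1 had -0.56 in members and 0.38 in classical monocytes, and 0.34 by the wider limits. Adgre1, encoding F4/80, had -0.86 in members and 0.41 in classical monocytes, and 0.20 by the wider limits. Cxcl9, an interferon-gamma-induced chemokine, had 0.89 in members and -0.53 in classical monocytes, and -0.12 by the wider limits; 5 cells held 89.8% of its counts in the 20-month members.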

How the results depend on the processing

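No paired analysis between ages was possible because each age has 1 library. The wider limits, the denominator of cells within the limits and the C1q sum under 20 were picked once the data were known. The log2 share ratio at 12 against 4 months, -2.29, was -1.15 with the rule on thinned cells, -2.93 with a C1q sum under 3, -0.79 with wider limits, -0.41 of myeloid cells, -0.43 of myeloid cells by the wider limits, -0.27 of cells within the limits and -0.80 with a C1q sum under 20 and wider limits. At 20 against 4 months, -1.86, the same alternatives gave -0.94, -3.20, -0.85, -1.17, -0.93, -0.52 and -0.75. The 189 genes past 2-fold at 12 months became 381 with a rule sum of at least 5, 712 with a C1q sum under 3, 516 without members that reached the F13a1, Vcan and Hp sum, 30 with wider limits, 616 from 20 CPM, 1022 with no filter and 309 with a pseudocount of 1 CPM. The 130 at 20 months became 459, 716, 326, 32, 383, 626 and 197. Leaving out the 5 highest cells of each gene gave 689 and 335, of which 686 and 332 were lower, because 5 cells are a larger part of 29 or 39 than of 139. The 29 genes against classical monocytes became 53 with a sum of at least 5, 60 with the rule on thinned cells, 63 without members that reached the classical sum and 45 with no filter. The median of nonclassical genes, 1.12, was 1.37 with a sum of at least 5 and 1.46 with the rule on thinned cells. Ubn2 was 0.32 with the rule on thinned cells and 0.28 with wider limits, and Ceacam1 0.12 with the rule on thinned cells. The cause was not tested. All 24 genes named against classical monocytes kept their direction over 288 alternative values, and 5 of the 8 named between ages did. These genes were picked by the size of their ratios in these same cells, and the alternatives reuse many of those cells. A kept direction is therefore no independent check. Depth limits the age comparisons, since 50 CPM stands for 10 counts at 12 months.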

Other observations

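Gzma, a granzyme of cytotoxic lymphocytes, stood at 216, 105 and 80.0 CPM in members at 4, 12 and 20 months, with a count in 71.9%, 55.2% and 48.7% of them and no more than 5 counts in any. Its log2 ratio at 20 against 4 months was -1.43 (-2.16 to -0.78) by the rule and -1.54 (-1.88 to -1.21) by the wider limits. T cells stood at 597, 384 and 185 CPM, classical monocytes at 172, 113 and 68.7, and macrophages at 190, 126 and 68.3. The level was thus lower at each later age in the 4 populations, including those that do not make the protein.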
